A study of Arabidopsis thaliana with 8 samples.

Results

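Pericentromeric windows are the 500-bp stretches just downstream of the annotated 3′ ends of genes that lie near the 5 Arabidopsis centromeres. Their loci were numbered AT1G35500 to AT1G42999, AT2G07000 to AT2G14999, AT3G30000 to AT3G43999, AT4G03600 to AT4G08999 or AT5G27700 to AT5G36999. One window was kept per locus, that of its lowest-numbered transcript model, if it held 24 or more raw read counts summed over the 8 libraries. This left 415 pericentromeric windows among the 15439 windows of the genome that passed the same minimum, and the other 15024 were the comparison. The choice used the summed count and the locus number, and did not use any difference between lines.

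The libraries came from polyadenylated RNA of 9-day-old Col-0 seedlings, with 2 replicates for each of 4 lines and single reads of 75 bases. The lines were wild type (WT), *fip37L*, *cpsf30-3* and *cpsf30-1*. The *fip37L* line is *fip37-4* carrying *LEC1:FIP37*, in which the embryonic *LEC1* promoter keeps FIP37, a subunit of the N6-methyladenosine (m6A) writer complex, active in the embryo only. The *cpsf30-3* line carries a T-DNA insertion and lacks the long isoform CPSF30L, which has a YTH-type m6A reader domain, and *cpsf30-1* lacks both isoforms of this polyadenylation factor. Seedlings of *fip37-4* derivatives were grown on richer medium with sucrose and collected under a microscope. The medium of the WT libraries is not given in the sources used here, so genotype and growth cannot be told apart in *fip37L*. Nothing in the labels states that the 2 replicates of a line were separate cultures, so p-values measure the spread between these samples, which may be technical.

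Pericentromeres of plants are heterochromatic, with dense DNA methylation, many transposable elements and pseudogenes, and few expressed genes. An mRNA ends where the cleavage and polyadenylation complex, of which CPSF30 is a subunit, cuts the nascent transcript near a poly(A) signal such as AATAAA. When cleavage fails, the polymerase runs on into the next element, so reads in a downstream window can come from readthrough. They can also come from another gene that overlaps the window. The paper names deregulation of the upstream gene as a further possible source, and left changed genes out of its list for another mutant, *nerd-1*. No such filter was applied here, so rises of a window and of its own gene were not told apart.

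The last 30 bases before the annotated 3′ end are shown for 7 loci on which the results below turn, because their windows begin at the next base. The sequences are RefSeq's, from the TAIR10.1 assembly, written 5′ to 3′ on the strand of the gene. Capitals mark AATAAA.
AT4G08110 (chr4:5083926-5083955, minus strand): tcaaactagtaaaagagaaggtttttgatt
AT2G11271 (chr2:4485414-4485443, minus strand): catcagttcttcagccttcaatctatataa
AT5G35100 (chr5:13359502-13359531, minus strand): agagattttcagttacatggccttcctcga
*BIP1* (chr5:10540123-10540152, minus strand): tgtgtataggtctaaatacaaattgtctaa
AT4G04670 (chr4:2372191-2372220, plus strand): tAATAAAaaggttttggtgtttttaattta
AT4G08405 (chr4:5331428-5331457, plus strand): gttatgAATAAAgatggatgctcattataa
AT4G04320 (chr4:2116664-2116693, plus strand): tatatatatgaatgtgattcgaagagatat
Of these 7 ends, AT4G04670 and AT4G08405 carry the motif in the bases shown. Over all members with a placed window, AATAAA lay in the last 50 bases of the transcript model in 35 of 412 (8.50%), against 9.43% of the other windows. It lay somewhere in the 500-base window itself in 177 of them (43.0%), against 39.7%. The motif was searched on the strand of the gene only. The last bases of AT2G11271 end in a stop codon, and 49 of the 359 protein-coding members (13.6%) had a model that ends at its coding sequence with no annotated 3′ UTR, against 8.12% of the other protein-coding windows. This feature was looked at after the sequences had been seen.

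Most pericentromeric loci had no reads downstream. Of the 3962 loci in the ranges, 2974 (75.1%) had 0 counts in all 8 libraries, 573 (14.5%) had 1 to 23 counts and 415 (10.5%) passed. Outside the ranges 13.9% of 27147 loci had 0 counts and 55.3% passed. The label of the ranges was checked against the annotation, in which 68.3% of their loci were pseudogenes, against 4.41% outside. No centromere positions were used.

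**Figure D1:**
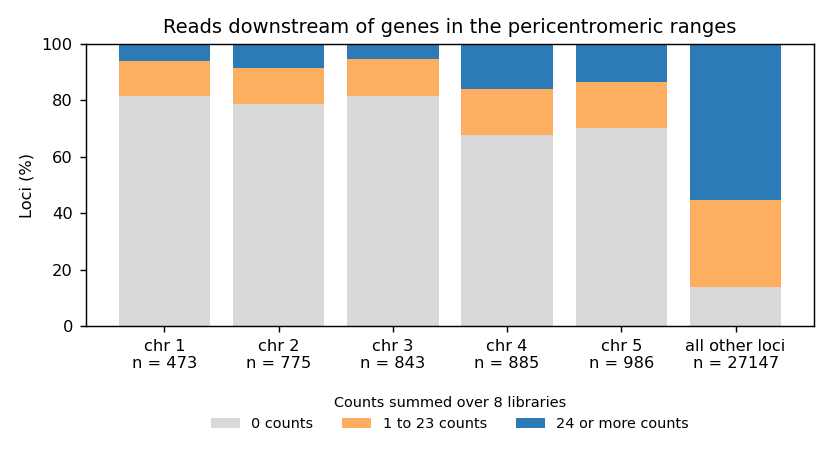
The bars divide the loci of each chromosome's range, and all other loci, by the counts summed over 8 libraries (y axis, percent of loci; n loci under each bar). Between 67.7% and 81.6% of the loci in each range had 0 counts, against 13.9% outside.

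The windows that passed were mostly those of genes. Of the 415, 359 belonged to protein-coding loci, 53 to pseudogenes, and 3 to loci that the reference did not hold. Of the pseudogenes in the ranges 1.96% passed, and of the protein-coding loci 30.6% passed, against 15.2% and 57.7% outside. The chromosome 4 range contributed 142 windows between 1606540 and 5772061, which was 16.0% of its loci, and the chromosome 5 range 134 between 9815421 and 14565475 (13.6%). The ranges of chromosomes 1, 2 and 3 contributed 29, 65 and 45, which were 6.13%, 8.39% and 5.34% of their loci. Near the minimum, 38 members held 24 to 30 counts, and 40 windows of the ranges just missed it with 18 to 23.

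Pericentromeric windows were shallower than the rest and stood more often on their own. Their median total over 8 libraries was 134 counts, against 277. A mean of 3 to 20 counts per library was found in 54.0% of them and in 39.8% of the other windows. In 159 (38.3%) the window was free of any other annotated gene, against 18.0% of the other windows, while 190 (45.8%) overlapped only a gene of the opposite strand and 63 (15.2%) a gene of the same strand, against 49.3% and 32.0%. The median difference between replicates of a line was 0.29 (log2) in members and 0.21 in other windows for WT, and 0.35 and 0.32 for *fip37L*.

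Depth was similar among the lines. The libraries held 5862499 to 8411827 counts over all transcript models and 4128248 to 6028994 over the windows that passed. A floor of 3 counts corresponded to 0.533 to 0.715 CPM (CPM being edgeR's read counts scaled to a common library size, after TMM normalization). The share of these counts in members was 1.04% in both WT libraries, 1.03% and 1.06% for *fip37L*, 1.06% and 1.05% for *cpsf30-3*, and 1.07% and 1.08% for *cpsf30-1*. The 5 members with the most WT reads made up 32.9% to 39.2% of the member reads of a library, and without them the shares ran from 0.638% to 0.703%.

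Each line was compared with WT to ask whether loss of the m6A writer subunit or of CPSF30 raises reads downstream of genes. A window was called when its adjusted p in edgeR was under 0.05 and its change at least 2-fold. In *fip37L*, 37 members (8.92%) were higher than in WT, where 6.32% of all windows were, and 22 (5.30%) were lower, where 2.36% were. In *cpsf30-3*, 3 (0.72%) were higher and 0 lower, against 1.13% and 0.123%. In *cpsf30-1*, 53 (12.8%) were higher and 11 (2.65%) lower, against 10.0% and 2.17%. All of these calls had both mutant libraries on one side of both WT libraries in CPM.

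**Figure D2:**
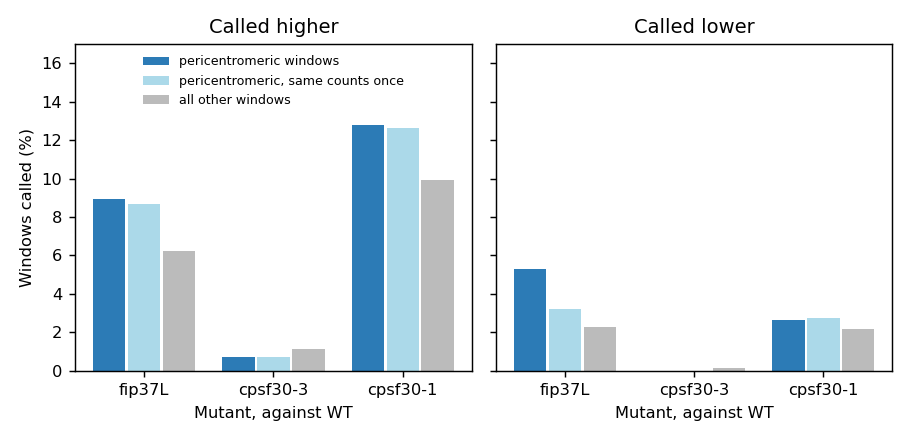
Bars give the percent of windows called higher (left) or lower (right) than WT in each line, for the 415 pericentromeric windows, for the same windows with identical sets of counts taken once, and for the 15024 others. Falls in *fip37L* drop from 5.30% to 3.22% when identical sets are taken once, against 2.28% of the others. Near-identical sets, those of AT5G36775 and AT5G36710 among them, are still counted apart.

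The share of rises lay near the background in each line and depended on how windows were chosen. Where windows were chosen by 6 or more WT reads instead of the summed count, 4.32% of 370 members rose in *fip37L*, against 5.42% of the other windows, so the order of the shares turned. In *cpsf30-1* it did not turn, with 9.19% against 7.46%. Choosing by WT reads draws on the baseline itself and favours falls. Of the 37 members that rose in *fip37L*, 18 held 1 to 3 WT counts and could not enter. The turn is therefore not read as a reversal. The median log2 change of all 415 members was 0.20 for *fip37L*, 0.03 for *cpsf30-3* and -0.03 for *cpsf30-1*, and that of the other windows 0.06, 0.03 and 0.01. The changes of members were spread more widely, beside their lower median count. The 5th to 95th percentiles in *fip37L* were -1.81 to 3.10 for members and -1.13 to 1.86 for the others.

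**Figure D3:**
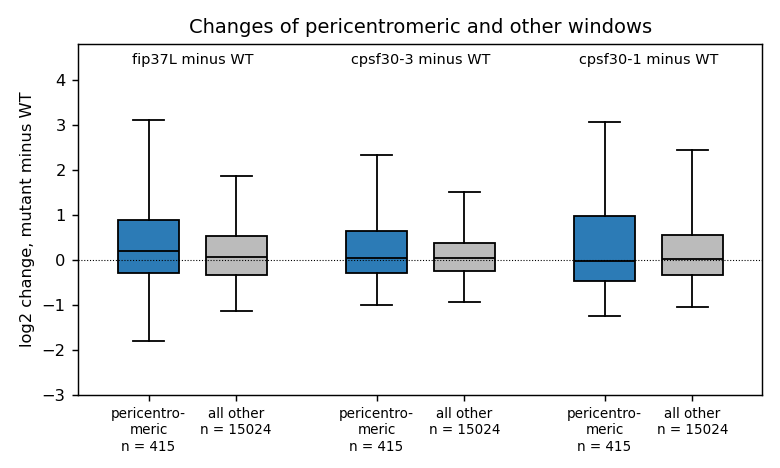
Boxes show the quartiles and median of the log2 change against WT in each line, and whiskers the 5th and 95th percentiles, for the 415 pericentromeric and the 15024 other windows. Medians of both sets lie between -0.03 and 0.20, while the whiskers of the pericentromeric windows reach farther, to 3.10 in *fip37L* against 1.86.

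Of the 415 windows, 309 (74.5%) were called in none of the 3 lines and 106 (25.5%) in at least 1, against 18.3% of all windows. Calls in 1 line alone were the most frequent. They comprised 37 windows higher in *cpsf30-1* (8.92%, against 7.35% of all windows), 21 higher in *fip37L* (5.06%, against 3.67%), 20 lower in *fip37L* (4.82%, against 1.95%) and 9 lower in *cpsf30-1* (2.17%, against 1.74%). Calls in more than 1 line numbered 19 (4.58%, against 3.37%), among them 14 windows higher in *fip37L* and *cpsf30-1* (3.37%, against 1.87%). Of the 20 windows lower in *fip37L* alone, 11 are those of the chromosome 5 stretch described below. The 3 comparisons share the WT libraries, and a call in 1 line and not in another does not show that the lines differ.

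AT4G08110 was the only member called higher in all 3 lines. Its window (chromosome 4, 5083426 to 5083925) lies downstream of a pseudogene, faces AT4G08100 on the opposite strand, and matches 5 other places of the genome. It held 12 and 9 counts from WT, 59 and 33 from *fip37L*, 36 and 41 from *cpsf30-3*, and 43 and 31 from *cpsf30-1*. Every mutant library lay above both WT libraries, and the 3 mutants overlapped each other. By edgeR the log2 change of *fip37L* was 2.17 ± 0.36 (SE, adjusted p = 0.00338), that of *cpsf30-3* 2.01 ± 0.36 (adjusted p = 0.0281) and that of *cpsf30-1* 1.96 ± 0.36 (adjusted p = 0.00522). The call in *cpsf30-3* was lost when any 1 of the 4 libraries was left out, with adjusted p from 0.0741 to 0.236.

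AT2G11271, an uncharacterised protein, had the largest rise in *fip37L* among windows with more than 3 WT counts. The window (chromosome 2, 4484914 to 4485413) lies opposite AT2G11270, a citrate synthase-like gene. It held 3 and 2 counts from WT, 61 and 47 from *fip37L*, 30 and 16 from *cpsf30-3*, and 11 and 6 from *cpsf30-1*. The libraries fell into 4 separate levels, with WT the lowest and *fip37L* the highest. The log2 change was 4.43 ± 0.45 (adjusted p = 0.000326) in *fip37L* and 3.26 ± 0.51 (adjusted p = 0.0166) in *cpsf30-3*, and it was 1.86 ± 0.61 (adjusted p = 0.0597) in *cpsf30-1*. Compared directly, *fip37L* exceeded *cpsf30-1* by 2.57 ± 0.36 (adjusted p = 0.000838) and *cpsf30-3* by 1.17 ± 0.31 (adjusted p = 0.0339), the latter not called by DESeq2 (adjusted p = 0.254). The *cpsf30-3* call against WT was lost in 3 of its 4 leave-one-out fits. The window of AT2G11270 on the other strand (chromosome 2, 4485569 to 4486068, free of other genes) held 45 and 36 counts from WT, 109 and 67 from *fip37L*, 75 and 49 from *cpsf30-3* and 39 and 41 from *cpsf30-1*. It rose in *fip37L* by 1.17 ± 0.22 (adjusted p = 0.00640).

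Some of the other leading rises of *fip37L* had 1 to 3 WT counts in all. For these the ratio of summed, scaled counts is given with a 95% interval that covers counting error only. AT4G05090, annotated as an inositol monophosphatase family gene (chromosome 4, 2611763 to 2612262), held 1 and 1 counts from WT, 39 and 18 from *fip37L*, 3 and 2 from *cpsf30-3* and 13 and 10 from *cpsf30-1*. The *fip37L* to WT ratio was 29.9 (7.90 to 253, edgeR adjusted p = 0.000929) and the *cpsf30-1* to WT ratio 12.7 (3.14 to 111, adjusted p = 0.00636), the latter not called by DESeq2 (adjusted p = 0.0534). Its window overlaps AT4G05091 on the same strand.

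AT4G05370, a locus that the reference did not hold, was high in *fip37L* only. Its counts were 2 and 0 from WT, 23 and 31 from *fip37L*, 2 and 0 from *cpsf30-3* and 1 and 1 from *cpsf30-1*. The *fip37L* libraries did not overlap those of any other line, with ratios of 28.3 (7.47 to 240, adjusted p = 0.00399) to WT, 25.8 (6.80 to 218, adjusted p = 0.00669) to *cpsf30-3* and 25.6 (6.76 to 217, adjusted p = 0.00267) to *cpsf30-1*. AT5G35460, an uncharacterised protein whose window (chromosome 5, 13675477 to 13675976) is free of other genes, held 6 and 4 counts from WT, 44 and 22 from *fip37L*, 9 and 10 from *cpsf30-3* and 15 and 24 from *cpsf30-1*. It rose by 2.74 ± 0.40 (adjusted p = 0.00207) in *fip37L* and by 2.07 ± 0.43 (adjusted p = 0.00945) in *cpsf30-1*. The second call was lost in 3 of its 4 leave-one-out fits and under DESeq2 (adjusted p = 0.0779).

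At each of 2 places a pair of neighbouring loci carried the same 8 counts on opposite strands. *PRK3*, a pollen receptor-like kinase gene, and the pseudogene AT3G42883 (windows within chromosome 3, 14956642 to 14957531) both held 0 and 1 counts from WT, 35 and 15 from *fip37L*, 14 and 9 from *cpsf30-3* and 2 and 15 from *cpsf30-1*. The *fip37L* to WT ratio was 52.4 (8.99 to 2111, adjusted p = 0.00585), and the *cpsf30-1* libraries were far apart, at 2 and 15. AT4G08405 and AT4G08406 (within chromosome 4, 5331269 to 5331957) both held 7 and 1 counts from WT, 55 and 7 from *fip37L*, 9 and 6 from *cpsf30-3* and 54 and 57 from *cpsf30-1*. The second *fip37L* library equalled the higher WT count before scaling, and the *fip37L* change of 2.92 ± 0.81 (adjusted p = 0.0345) was lost without any 1 of 3 of its 4 libraries, with adjusted p up to 0.392. In *cpsf30-1* both libraries were high, and the change was 3.90 ± 0.75 (adjusted p = 0.00634). The window of *PRK3* matches 19 other places of the genome, and that of AT4G08406 matches 13. From which place the reads of these windows came was not tested.

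The falls in *fip37L* named by rule had ample WT reads. AT4G04320, a malonyl-CoA decarboxylase family gene whose window (chromosome 4, 2116694 to 2117193) faces the Rubisco assembly chaperone gene *RbcX1*, held 292 and 219 counts from WT and 76 and 34 from *fip37L*. The *cpsf30-3* libraries held 211 and 156 and the *cpsf30-1* libraries 229 and 327, so *fip37L* was below all 6 others. The change against WT was -2.17 ± 0.22 (adjusted p = 0.000339), that against *cpsf30-3* -1.82 ± 0.23 (adjusted p = 0.00157) and that against *cpsf30-1* -2.43 ± 0.22 (adjusted p = 8.35e-05), and all 3 calls held without any 1 library. AT5G27895, a pseudogene (chromosome 5, 9905558 to 9906057), held 39 and 45 counts from WT, 11 and 9 from *fip37L*, 32 and 30 from *cpsf30-3* and 17 and 14 from *cpsf30-1*. It fell by 1.99 ± 0.30 (adjusted p = 0.00237) in *fip37L* and by 1.28 ± 0.28 (adjusted p = 0.0114) in *cpsf30-1*. The second call was lost in 2 of its 4 leave-one-out fits and under DESeq2 (adjusted p = 0.171). The nearby AT5G27889, whose window overlaps AT5G27890 on the same strand, held 65 and 53 counts from WT but 22 and 2 from *fip37L*, a change of -2.25 ± 0.48 (adjusted p = 0.0114) that was lost without either of 2 of its 4 libraries. AT4G08790, a nitrilase family gene, held 33 and 17 counts from WT and 7 and 7 from *fip37L*. Its change of -1.74 ± 0.50 (adjusted p = 0.0402) was not called by DESeq2 (adjusted p = 0.110).

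Several falls of *fip37L* outside the naming rule also held without any 1 library, and are given after their values were seen. *SLO2*, a pentatricopeptide repeat protein gene that acts in mitochondrial RNA editing, held 148 and 127 counts from WT and 59 and 43 from *fip37L* (-1.36 ± 0.21, adjusted p = 0.00282). *CRK25*, a cysteine-rich receptor-like kinase gene, held 112 and 151 from WT and 43 and 38 from *fip37L* (-1.63 ± 0.23, adjusted p = 0.00151). Neither gene's *fip37L* libraries overlapped those of WT.

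Of the 22 falls in *fip37L*, 11 came from 1 stretch of chromosome 5. There, 10 windows from AT5G36720 to AT5G36780, spread over 45324 bases (14429161 to 14474484), held exactly the same counts, 14 and 4 from WT, 0 and 0 from *fip37L*, 4 and 4 from *cpsf30-3* and 2 and 5 from *cpsf30-1*. AT5G36775 differed from them by 1 count. The loci are on both strands and are annotated as unlike genes, among them a thionin, an F-box protein and an ECA1 gametogenesis related protein. All 13 windows inside the stretch were at or above the shared counts in every library, and all 10 windows are repeated elsewhere in the genome. Against a floor of 3 counts over the group, *fip37L* was at least 5.72-fold lower than WT (adjusted p = 0.0184 in edgeR), and the WT replicates differed, at 14 and 4. *PGLP1* (AT5G36700), the gene of a photorespiratory phosphatase just outside the stretch, held 58 and 66 counts from WT and 50 and 56 from *fip37L*, and AT5G36790 on the other side 72 and 70 from WT and 50 and 56. The *fip37L* counts of these 2 windows were the same, so they may not be independent of each other. Why windows so far apart share their counts was not tested.

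**Figure D4:**
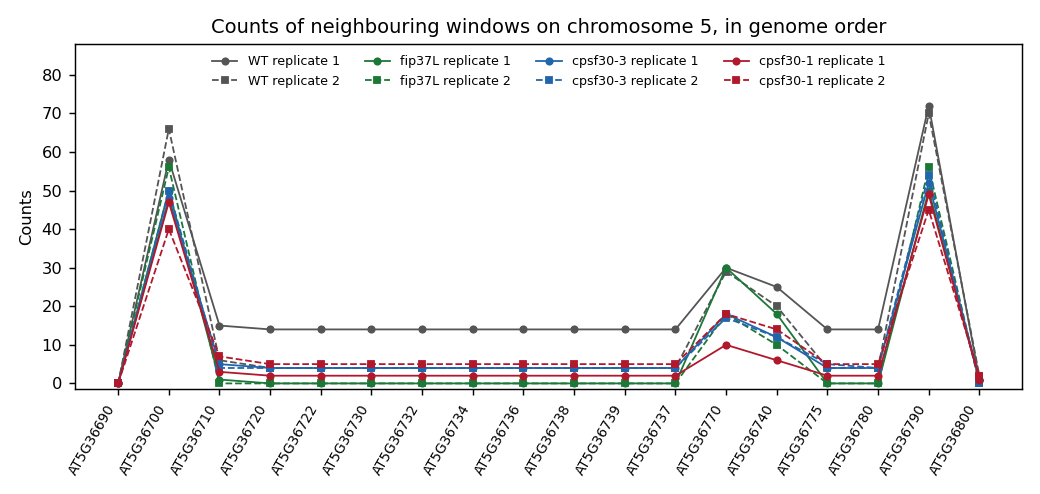
Lines give the raw counts of 18 neighbouring windows on chromosome 5, in genome order (x axis), in each of the 8 libraries (y axis, counts). The 10 windows with identical counts form flat lines at 14, 4, 0, 0, 4, 4, 2 and 5, broken by AT5G36770 and AT5G36740, between *PGLP1* (AT5G36700) and AT5G36790 at 40 to 72.

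Among all members, 14 windows shared their 8 counts with another, which left 404 distinct sets, and 115 members overlapped another member, which left 357 separate places. Counted once per distinct set, 35 members rose and 13 fell in *fip37L* and 51 rose and 11 fell in *cpsf30-1*. The 13 still count the near-identical sets of AT5G36775 and AT5G36710 apart from the largest shared set. All 3 shared sets held windows on both strands. Over the whole table, 34 pairs of windows lay on opposite strands within 25 bases of each other, of which 11 had totals within 5% of each other and the other 23 differed by more. The strand setting of the counting is not given in the sources used here, so in pairs with equal counts the reads cannot be assigned to either strand. AT2G11300 and AT2G11310 formed the only 1 of the 34 pairs with both windows among the members, and AT2G11300, named after its values were seen, held 0 and 0 counts from WT, 14 and 9 from *fip37L*, 5 and 4 from *cpsf30-3* and 5 and 2 from *cpsf30-1*. It was at least 8.04-fold higher in *fip37L* than the floor of 3 WT counts (adjusted p = 0.00536). AT2G11300 met the count minimum only through the *fip37L* libraries, in which it was high, so this size is no support for the count of rises.

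The number of calls in *fip37L* changed when single libraries were left out. It changed in the same direction in the other windows, so this was not particular to the members. The 59 calls became 15 without WT replicate 1, 29 without WT replicate 2, 35 without *fip37L* replicate 1 and 67 without *fip37L* replicate 2, and 8 rises and 5 falls were called in all 4 of these fits. DESeq2 called 20. A fit of the windows free of other genes alone gave 4 rises and 11 falls in members, against 96 and 58 in the other windows.

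The leading rises in *cpsf30-1* had few WT reads, and several met the count minimum only through the *cpsf30-1* libraries themselves. Without those libraries 10 of the 53 risen members held under 24 counts, among them AT2G14910 with 18, *MSRB5* with 19, *GME* with 18, *BIP1* with 22 and AT5G35690 with 8. In *fip37L* the same held for 14 of 37 rises, AT4G05370 with 6 counts among them, and 13 of the 22 falls held under 24 counts without WT. Such windows could enter only by being high in 1 line, so their sizes are no support for the count of rises or falls. AT2G14910, a MAR-binding filament-like gene (chromosome 2, 6405889 to 6406388, window free of other genes), held 0 and 1 counts from WT, 1 and 2 from *fip37L*, 7 and 7 from *cpsf30-3* and 30 and 25 from *cpsf30-1*. The *cpsf30-1* to WT ratio was 60.8 (10.5 to 2443, adjusted p = 0.000643), and *cpsf30-1* exceeded *cpsf30-3* by 1.97 ± 0.45 on the log2 scale (adjusted p = 0.0244), the latter call being lost without any 1 library and under DESeq2 (adjusted p = 0.256). *MSRB5*, a methionine sulfoxide reductase that repairs oxidised proteins (chromosome 4, 2447087 to 2447586, free), held 1 and 0 counts from WT, 3 and 0 from *fip37L*, 6 and 9 from *cpsf30-3* and 24 and 23 from *cpsf30-1*, a ratio to WT of 51.9 (8.87 to 2094, adjusted p = 0.00217). In both windows the *cpsf30-3* libraries lay between those of WT and *cpsf30-1*.

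*BIP1*, the Hsp70 chaperone of the endoplasmic reticulum lumen (chromosome 5, 10539623 to 10540122, free of other genes), held 1 and 2 counts from WT, 8 and 8 from *fip37L*, 2 and 1 from *cpsf30-3* and 36 and 35 from *cpsf30-1*. The *cpsf30-1* libraries stood far above all others, at 26.1 times WT (8.59 to 130, adjusted p = 0.000225) and 23.8 times *cpsf30-3* (7.82 to 118, adjusted p = 0.000620). The *fip37L* to WT ratio was 5.59 (1.60 to 29.9, adjusted p = 0.0248), not called by DESeq2 (adjusted p = 0.179). AT5G35100, a cyclophilin-like peptidyl-prolyl isomerase (chromosome 5, 13359002 to 13359501, opposite AT5G35090), held 1 and 2 counts from WT, 8 and 3 from *fip37L*, 21 and 16 from *cpsf30-3* and 44 and 40 from *cpsf30-1*. The *cpsf30-1* to WT ratio was 30.9 (10.2 to 153, adjusted p = 0.000151) and the *cpsf30-3* to WT ratio 13.6 (4.29 to 68.7, adjusted p = 0.0135). Its libraries formed 4 levels in the order WT, *fip37L*, *cpsf30-3*, *cpsf30-1*, and *cpsf30-1* exceeded *cpsf30-3* by 1.20 ± 0.31 (adjusted p = 0.0388). That last call was lost without any 1 library and under DESeq2 (adjusted p = 0.410), and the *cpsf30-3* call against WT was lost without any 1 library. AT4G07990, a DnaJ-domain chaperone gene (chromosome 4, 4824124 to 4824623, free), held 4 and 6 counts from WT, 12 and 10 from *fip37L*, 9 and 5 from *cpsf30-3* and 31 and 32 from *cpsf30-1*. It rose in *cpsf30-1* by 2.77 ± 0.38 over WT (adjusted p = 0.00107) and by 2.17 ± 0.36 over *cpsf30-3* (adjusted p = 0.00633, but 0.0720 by DESeq2), and its *cpsf30-3* and WT libraries overlapped.

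*GME* encodes the GDP-mannose epimerase of the vitamin C pathway (chromosome 5, 10861516 to 10862015, free). It held 3 and 0 counts from WT, 4 and 4 from *fip37L*, 4 and 3 from *cpsf30-3* and 32 and 31 from *cpsf30-1*, a ratio to WT of 23.2 (7.58 to 115, adjusted p = 0.00113). Against *cpsf30-3* the log2 difference was 3.14 ± 0.53 (adjusted p = 0.00677, lost in 3 of 4 leave-one-out fits), and only the *cpsf30-1* libraries were high. AT5G35690, a zinc metalloproteinase-like gene (chromosome 5, 13864146 to 13864645, overlapping AT5G35688 on the same strand), held 2 and 1 counts from WT, 0 and 2 from *fip37L*, 0 and 3 from *cpsf30-3* and 18 and 22 from *cpsf30-1*. Its ratio to WT was 14.7 (4.69 to 74.4, adjusted p = 0.0115), lost without any 1 of the 4 libraries (adjusted p 0.0568 to 0.0933) and not called by DESeq2 (adjusted p = 0.0553).

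**Figure D5:**
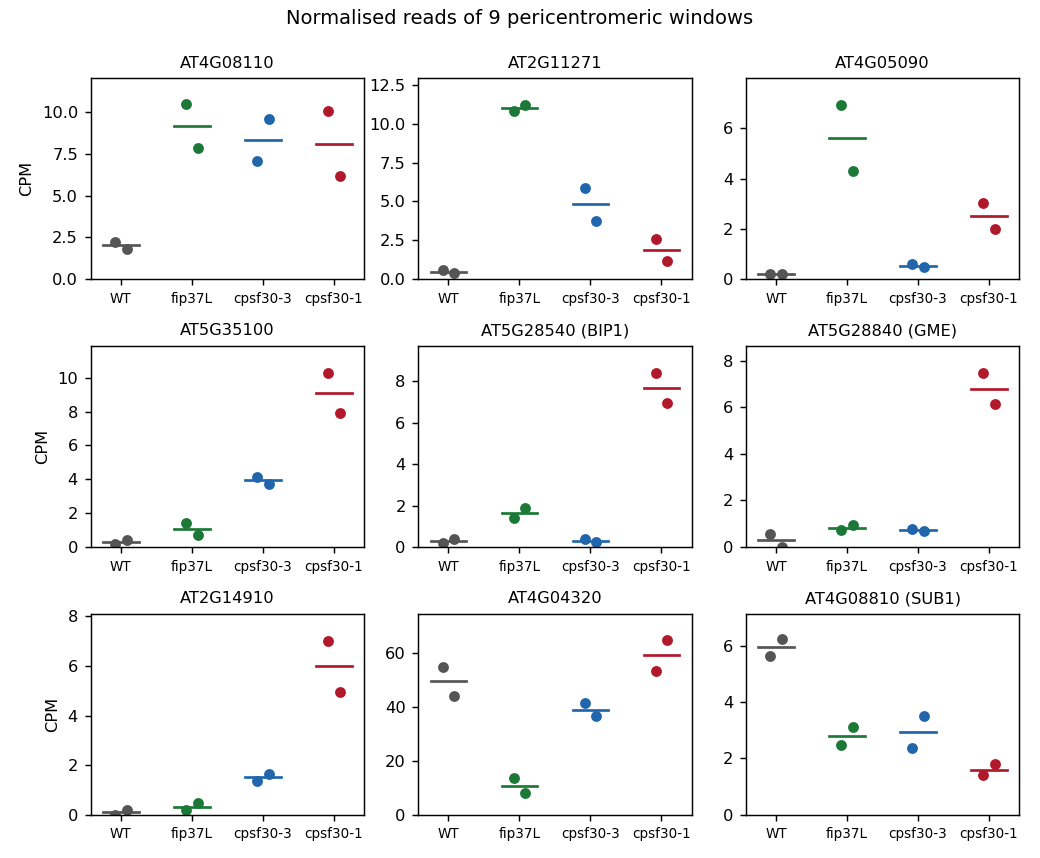
Points are single libraries and horizontal lines the mean of 2 (y axes, CPM) for 9 named windows in WT, *fip37L*, *cpsf30-3* and *cpsf30-1*. *BIP1* reads 0.295 ± 0.151 CPM in WT and 7.67 ± 1.04 in *cpsf30-1* (SD, n = 2), while AT4G04320 reads 49.4 ± 7.67 in WT and 10.8 ± 3.82 in *fip37L*.

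Of the 4 members annotated as extensins or extensin-like, a group of proline-rich cell wall proteins, 3 rose in *cpsf30-1*, against 13 of 34 such windows outside the ranges. The calls of these members held without any 1 library, which was not looked at for the windows outside. The extensin members lie outside the naming rule and were grouped after their values were seen, so their number is a description only. The fourth, *SAH7*, held 260 and 211 counts from WT and 177 and 229 from *cpsf30-1* (-0.07, adjusted p = 0.831). AT4G08400 held 23 and 28 counts from WT and 107 and 74 from *cpsf30-1* (1.99 ± 0.30, adjusted p = 0.00190). AT4G08410 held 31 and 38 from WT and 153 and 140 from *cpsf30-1* (2.23 ± 0.28, adjusted p = 0.000607), and *EXT13* (AT5G35190) 22 and 24 from WT and 102 and 82 from *cpsf30-1* (2.15 ± 0.32, adjusted p = 0.00161). In all 3 the *cpsf30-1* libraries also exceeded those of *cpsf30-3*, which held 34 and 30, 40 and 33, and 47 and 35 counts. AT4G08400 and AT4G08410 lie on either side of AT4G08405. Of the 4 extensin members, 2 were also called higher in *fip37L*, against 10 of 34 outside the ranges. In *cpsf30-3* 0 were, against 2 of 34.

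The falls in *cpsf30-1* were fewer. *SUB1*, a calcium-binding protein gene of cryptochrome and phytochrome signalling (chromosome 4, 5615421 to 5615920, opposite AT4G08800), held 30 and 31 counts from WT, 14 and 13 from *fip37L*, 12 and 15 from *cpsf30-3* and 6 and 9 from *cpsf30-1*. All 6 mutant libraries were below both WT libraries, with a change of -1.87 ± 0.35 (adjusted p = 0.00555) for *cpsf30-1* and of -1.09 ± 0.32 (adjusted p = 0.0397) for *fip37L*. DESeq2 called neither (adjusted p = 0.0851 and 0.367). *APRL6*, an APR-like gene (chromosome 4, 5730851 to 5731350, overlapping AT4G05680 on the same strand), held 74 and 64 counts from WT, 62 and 74 from *fip37L*, 38 and 40 from *cpsf30-3* and 17 and 21 from *cpsf30-1*, and fell by 1.71 ± 0.29 (adjusted p = 0.00310) in *cpsf30-1*. AT2G12461, an uncharacterised protein (chromosome 2, 5049453 to 5049952, free), held 60 and 66 counts from WT, 68 and 56 from *fip37L*, 41 and 28 from *cpsf30-3* and 14 and 23 from *cpsf30-1*. It fell by 1.63 ± 0.25 (adjusted p = 0.00206), and in this window as in that of *APRL6* the *fip37L* and WT libraries overlapped. AT1G35612, a pseudogene (chromosome 1, 13146694 to 13147193, free), held 110 and 79 counts from WT and 22 and 40 from *cpsf30-1* (-1.47 ± 0.31, adjusted p = 0.00980, lost in 2 of 4 leave-one-out fits), with *fip37L* at 75 and 31 and *cpsf30-3* at 83 and 61.

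Of the 64 calls in *cpsf30-1*, 19 rises and 2 falls held without any 1 library. The total became 32 without WT replicate 1, 31 without WT replicate 2 and 39 without *cpsf30-1* replicate 2, and DESeq2 called 33. In *cpsf30-3* the 3 rises were AT4G08110, AT2G11271 and AT5G35100. DESeq2 called the same 3 higher and 0 lower. At an unadjusted p under 0.05, 54 members were higher and 28 lower in edgeR. The share of the other windows at this limit was not taken, so these counts are not read as a shift. The median log2 change was 0.03 in members and 0.03 in the others. The 3 calls became 0 without either WT replicate or *cpsf30-3* replicate 1 and 1 without *cpsf30-3* replicate 2.

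The lines were then compared directly, to test the differences between them. Between the CPSF30 mutants 18 members (4.34%) were higher in *cpsf30-1* and 2 (0.48%) lower, where 4.63% and 1.18% of all windows were. *BIP1*, *GME*, AT4G08405 and AT5G35690 led the rises. The *BIP1* call and that of AT4G08410 held without any 1 library, and the 20 calls became 3 without *cpsf30-3* replicate 1, *cpsf30-3* replicate 2 or *cpsf30-1* replicate 1 and 7 without *cpsf30-1* replicate 2. The 2 lower windows were those of AT1G35612 and AT4G05071. Between *fip37L* and *cpsf30-3*, 18 members (4.34%) were higher and 7 (1.69%) lower in *fip37L*, where 3.32% and 2.16% of all windows were, and the 25 calls became 6 without *cpsf30-3* replicate 1 and 8 without *cpsf30-3* replicate 2. Between *fip37L* and *cpsf30-1*, 44 (10.6%) were higher and 43 (10.4%) lower in *fip37L*, where 6.85% and 9.18% were. These 87 became 48 without *cpsf30-1* replicate 1 and 54 without *cpsf30-1* replicate 2. With scaling by library size alone the 87 became 33 higher and 61 lower, so the split turned toward *cpsf30-1*.

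None of the 5 members with the most WT reads was called against WT. AT5G35631, a locus not held by the reference, carried 7507 and 7104 counts from WT, 8902 and 7109 from *fip37L*, 7939 and 6689 from *cpsf30-3* and 7765 and 8945 from *cpsf30-1*. Its change in *cpsf30-1* was 0.34 ± 0.07 (adjusted p = 0.0121). AT1G42960 carried 4644 and 4113 counts from WT, 6706 and 5835 from *fip37L*, 5228 and 4768 from *cpsf30-3* and 4926 and 6562 from *cpsf30-1*. Its window (chromosome 1, 16127299 to 16127798) overlaps *GAPB* on the same strand, a gene of the Calvin cycle that is abundantly transcribed in leaves, and the change was 0.60 ± 0.10 (adjusted p = 0.00382) in *fip37L* and 0.53 ± 0.10 (adjusted p = 0.00623) in *cpsf30-1*.

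AT4G05071 (chromosome 4, 2593654 to 2594153, overlapping AT4G05070 on the same strand) carried 2237 and 1829 counts from WT, 4187 and 1401 from *fip37L*, 4325 and 3436 from *cpsf30-3* and 1225 and 2156 from *cpsf30-1*. The *fip37L* replicates lay on both sides of WT. Both *cpsf30-3* libraries exceeded both WT libraries, by 1.07 ± 0.30 on the log2 scale, which is past 2-fold but did not pass the test (adjusted p = 0.113). The level in *cpsf30-1* was below that in *cpsf30-3* by 1.21 ± 0.30 (adjusted p = 0.0346), a call lost without any 1 library and under DESeq2 (adjusted p = 0.112). *PUM9*, of the Pumilio family of RNA-binding proteins (chromosome 1, 13226824 to 13227323, facing the annexin gene *ANNAT1*), carried 1705 and 1670 counts from WT, 1576 and 1626 from *fip37L*, 1098 and 1178 from *cpsf30-3* and 756 and 929 from *cpsf30-1*. The *cpsf30-1* libraries were the lowest, with a change of -0.86 ± 0.16 (adjusted p = 0.00469).

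Of the 5, only AT2G10405 lies downstream of a pseudogene, and its window (chromosome 2, 4006117 to 4006616) faces *SADHU1-1*, a member of a family of non-coding retrotransposons. It carried 1654 and 1665 counts from WT, 2454 and 2162 from *fip37L*, 1707 and 1359 from *cpsf30-3* and 1230 and 1514 from *cpsf30-1*. Both *fip37L* libraries exceeded all others, by 0.56 ± 0.10 (adjusted p = 0.00504) over WT, which is short of 2-fold. Rises of pseudogene members came at shares near those of pseudogene windows outside the ranges, with 6 of 53 (11.3%) against 11.0% in *fip37L* and 7 (13.2%) against 12.1% in *cpsf30-1*. Falls in *fip37L* were more frequent, with 6 of 53 (11.3%) against 3.30%, and in *cpsf30-1* 3 (5.66%) fell, against 6.59%. The *fip37L* falls were not separated from those of the chromosome 5 stretch of identical counts. They may therefore not be independent windows. The 4 members with a transposon in their description had 0 calls in any line in edgeR.

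The readthrough list that the study drew from libraries of another mutant, *nerd-1*, includes 10 members. In *fip37L* 4 of the 10 were called higher, in *cpsf30-3* 2 and in *cpsf30-1* 7, beside the 6.32%, 1.13% and 10.0% of all windows given above. None was called lower. Of the 4 in *fip37L*, AT4G04670 held 20 counts without the *fip37L* libraries. It met the minimum only through the line in which it was high, so it is no support for the count. AT4G08110, AT5G35100, AT2G11270 and AT4G07990 are described above. AT4G08540, annotated as an RNA polymerase II protein (chromosome 4, 5436525 to 5437024, overlapping AT4G08545 on the same strand), held 2 and 1 counts from WT, 22 and 9 from *fip37L*, 5 and 8 from *cpsf30-3* and 16 and 21 from *cpsf30-1*. The ratio to WT was 10.8 (3.38 to 55.4, adjusted p = 0.00692) in *fip37L* and 13.6 (4.31 to 69.1, adjusted p = 0.00300) in *cpsf30-1*, and all mutant libraries exceeded both WT libraries. The *fip37L* call was kept in 2 of its 4 leave-one-out fits. AT4G04670, a Met-10 and kelch repeat gene (chromosome 4, 2372221 to 2372720, overlapping AT4G04680 on the same strand), held 0 and 3 counts from WT, 15 and 15 from *fip37L*, 7 and 0 from *cpsf30-3* and 3 and 7 from *cpsf30-1*. Its *fip37L* to WT ratio of 10.5 (3.26 to 53.7, adjusted p = 0.0486) was lost without any 1 of the 4 libraries (adjusted p 0.0525 to 0.244).

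Among the remaining members of that list, AT3G42950, a pectin lyase-like gene (chromosome 3, 15018654 to 15019153), held 27 and 32 counts from WT, 42 and 51 from *fip37L*, 54 and 55 from *cpsf30-3* and 61 and 86 from *cpsf30-1*, and rose in *cpsf30-1* by 1.45 ± 0.28 (adjusted p = 0.00623). AT2G11890, annotated as an adenylate cyclase, rose there by 1.15 ± 0.29 (adjusted p = 0.0210), and AT4G08170, of the inositol trisphosphate kinase family, by 2.16 ± 0.59 (adjusted p = 0.0304). DESeq2 called neither of these 2 (adjusted p = 0.192 and 0.159), and both calls were lost without any 1 library. Their windows overlap AT2G11891 and AT4G08160 on the same strand. The call of AT3G42950 was kept in 2 of its 4 leave-one-out fits. The beta-glucosidase gene *BGLU42*, with 10 and 10 counts from WT, 14 and 20 from *fip37L*, 15 and 15 from *cpsf30-3* and 9 and 10 from *cpsf30-1*, was called in no line.

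Calls were spread over the 5 ranges. In *cpsf30-1* the rises were 1 of 29 windows on chromosome 1, 6 of 65 on chromosome 2, 7 of 45 on chromosome 3, 20 of 142 on chromosome 4 and 19 of 134 on chromosome 5. In *fip37L* they were 3, 11, 4, 13 and 6 in the same order. Of the 22 falls in *fip37L*, 15 were on chromosome 5, where the stretch of identical counts lies. In *cpsf30-1*, 15.7% of the 159 members free of other genes rose, against 20.2% of such windows elsewhere, and 8.42% of the 190 with an opposite-strand gene rose, against 6.03%. In *fip37L* these shares were 9.43% against 7.06%, and 8.95% against 5.84%. By level, 0 of the 77 members with a mean of 100 or more counts were called in *cpsf30-1* by edgeR, against 2.25% higher and 2.05% lower among such windows elsewhere. Members of 20 to 100 counts rose in 17.5% of 114, against 10.9%, and those of 3 to 20 counts in 14.7% of 224, against 15.1%. These shares stand as descriptions, since windows that overlap or share reads are not independent.

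Repeated sequence was more frequent in the ranges. A match of 95% identity or more over at least 250 bases to another place of the nuclear genome was found for 45 of the 412 placed members (10.9%), against 2.44% of the other windows, and 0 of both sets matched the chloroplast or mitochondrial sequence in this way. Of the 45 repeated members 7 rose and 12 fell in *fip37L*, all 12 of which were the 11 windows of the chromosome 5 stretch and the adjacent AT5G36710, and 7 rose and 0 fell in *cpsf30-1*. Without repeated members, 30 of 370 (8.11%) rose and 10 (2.70%) fell in *fip37L*. The median A+T content of the windows was 64.2% in members and 63.2% in the others.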

How the data were processed

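The authors deposited a table of read counts that were not normalized, with 1 count for each transcript model in each library, made with BEDTools (version not given in the sources used here) over the 500 bp after each 3′ end. Per the submitters' processing notes and the study's methods, organellar and rRNA reads were removed with Bowtie2 2.3.4 and the rest mapped to TAIR10 with TopHat2 2.0.7. The study describes its density as strand-specific; the strand option used for counting is not given in the sources used here. Windows were placed from the RefSeq 3′ ends of TAIR10.1, which can differ from the authors' annotation. A read can be counted in every window it overlaps.

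All 15439 windows with 24 or more counts were fitted at once in R 4.3.3 with the two-sided quasi-likelihood test of edgeR 4.0.16 (TMM scaling, 4 group means, 4 residual degrees of freedom, Benjamini-Hochberg over all windows), and SE is the log2 change over the square root of its F. The test was first run on simulated data. DESeq2 1.42.0, other filters and scalings, a fit of 2 groups, a replicate block and leaving out each library were alternatives; windows chosen by WT reads, windows free of genes, and identical count sets taken once were added after the data were seen. Repeats were found with blastn 2.17.0. Counts are not marked by molecule, so intervals and floors cover counting error only.

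Named windows were, per mutant against WT, the 8 largest rises and 4 largest falls among calls with separated libraries and a mean of 20 counts or more in the higher group, plus members called higher in all 3 lines, the *nerd-1* list, the 5 members with the most WT reads, and the 4 largest differences each way between the CPSF30 mutants. The members, lists and rules were chosen with earlier results of these data known. Reads of gene bodies were not used here.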

Additional observations from a re-analysis of the deposited data

How the results depend on the processing

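The direction of the counts (more rises than falls against WT) held in *cpsf30-1* under every setting tried, and in *fip37L* under all but 3. Among these, the choice by WT reads leaves out windows near 0 in WT, and so favours falls in advance. Windows chosen by WT reads gave 16 rises and 23 falls in *fip37L* (39 calls against 59), against 784 and 326 in the other windows. Those free of annotated genes, fitted alone, gave 4 and 11, against 96 and 58. Leaving out WT replicate 2 also gave more falls than rises in members, but not in the other windows. The share of these falls that came from the chromosome 5 stretch of identical counts was not separated. Calls in *fip37L* minus WT numbered 20 by DESeq2, 19 with a minimum mean of 20 counts, 32 in a fit of the 2 groups only and 15 in windows free of genes. The 64 calls of *cpsf30-1* minus WT became 33 by DESeq2, 25 at a mean of 20 counts and 31 in windows free of genes. The 3 calls of *cpsf30-3* minus WT became 30 with no filter, 13 in the 2-group fit, 5 with the replicate block and 0 in windows free of genes. The 20 calls of *cpsf30-1* minus *cpsf30-3* became 9 by DESeq2, 40 with no filter, 6 at a mean of 20 counts, 31 in the 2-group fit, 13 without same-strand genes and 11 in windows free of genes. The 25 calls of *fip37L* minus *cpsf30-3* became 8 by DESeq2, 56 with no filter, 12 at a mean of 20 counts, 9 in the 2-group fit, 44 with no fold limit, 16 by WT reads and 0 in windows free of genes. The 87 calls of *fip37L* minus *cpsf30-1* became 41, 32 and 35 by DESeq2, at a mean of 20 counts and in windows free of genes. Why these counts moved was not tested, beyond the smaller number of windows or libraries in some settings.

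Leaving out 1 library gave 15 to 67 calls in *fip37L*, 0 to 1 in *cpsf30-3* and 31 to 43 in *cpsf30-1* against WT, 3 to 7 between the CPSF30 mutants, 6 to 28 for *fip37L* minus *cpsf30-3* and 48 to 84 for *fip37L* minus *cpsf30-1*. These fits leave 1 library in a group, which is assumed to vary like the others. The share of reads in members, 1.05% on average, became 1.03% without repeated windows and 0.67% without the 5 members with the most WT reads.

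With the replicate block the calls numbered 55, 5 and 60 in *fip37L*, *cpsf30-3* and *cpsf30-1* against WT, and 22, 20 and 83 in the 3 direct comparisons. Deviations of same-numbered libraries correlated between -0.054 and 0.035 across windows, so no pairing by replicate number was seen. Many windows hold few reads, so shared handling of same-numbered libraries is not excluded. Scaling by library size alone moved the median change of the other windows in *fip37L* from 0.06 to -0.08, and split *fip37L* minus *cpsf30-1* into 33 higher and 61 lower in place of 44 and 43.

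With 2 libraries per line and a median of 134 counts over 8 libraries, windows of few reads carry wide counting intervals, and absence of a call does not show that a window stayed level.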

Other observations

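The 3547 loci of the ranges that missed the count minimum were not tested one by one, but 573 of them held some reads. Their summed level was 60.8 and 62.7 CPM for WT, 108 and 98.4 for *fip37L*, 61.7 and 70.7 for *cpsf30-3* and 87.6 and 82.9 for *cpsf30-1*. The libraries of *fip37L* and *cpsf30-1* lay above those of WT, and those of *cpsf30-3* overlapped WT. The pseudogenes among these loci held 17.1 and 20.1 CPM for WT, 39.1 and 31.9 for *fip37L*, 21.7 and 25.5 for *cpsf30-3* and 24.1 and 21.0 for *cpsf30-1*. Pseudogenes below the minimum outside the ranges held 29.5 and 22.5 CPM for WT and 54.5 and 36.4 for *fip37L*, so higher sums in *fip37L* were also seen there. All loci below the minimum outside the ranges held 1413 and 1338 CPM for WT, 1722 and 1680 for *fip37L*, and 2314 and 2289 for *cpsf30-1*. These sums are values without a test, and overlapping windows can count a read more than once.

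The 53 pseudogene members that passed summed to 685 and 713 CPM for WT, 931 and 939 for *fip37L*, 719 and 706 for *cpsf30-3* and 640 and 638 for *cpsf30-1*. Without AT2G10405, the window that faces *SADHU1-1*, the sums were 374 and 378 for WT, 495 and 424 for *fip37L*, 385 and 388 for *cpsf30-3* and 353 and 338 for *cpsf30-1*.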
